A study of Mus musculus with 3 samples.

Results

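The cells described here are the 335 day 7 cells of a testis Leydig differentiation culture that ranked highest for 6 genes, *Mgll*, *Anxa8*, *Ltbp2*, *Tnc*, *Sema7a* and *Nupr1*. Day 7 columns of the merged count table with at least 1500 unique molecular identifiers (UMIs, 1 for each captured RNA molecule) and 0 UMIs of the proliferation genes *Mki67* and *Top2a* were ranked by the summed UMIs of the 6 genes over all UMIs of the cell. Of the 2171 day 7 cells, 1742 held 1500 UMIs or more and 1340 also lacked *Mki67* and *Top2a*, and the top quartile of these was compared with the bottom quartile, also 335 cells. The whole series as used here holds 6124 cells.

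Cells were sorted as Sca1+/cKit- from testes of adult C57BL/6 males aged 8 to 12 weeks and were grown on Matrigel in 24-well plates at 100000 cells per well. After 18 h of recovery in 10% FBS came 3 days of expansion, with the growth factors PdgfAA, PdgfBB and Fgf2 each at 10 ng/ml and the hedgehog agonist SAG at 0.5 uM. The differentiation medium kept these factors and added LiCl2 (5 mM) and DAPT (10 uM, an inhibitor of Notch cleavage). Day 7 cells had spent 3 days in it, day 14 cells 10 days, and day 4 cells came from the end of expansion. Each day is 1 Drop-seq library, a droplet method that reads the 3′ ends of RNA, and how many animals were pooled is not given in the sources used here. With 1 library per day and cells that are not replicates of each other, no test was possible. Levels are therefore summed UMIs of a group per 1000000 UMIs (CPM) with exact Poisson 95% intervals, ratios carry exact intervals from the same counts, and both cover counting error only.

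Myofibroblasts are fibroblast-lineage cells that build a contractile apparatus like that of smooth muscle, with *Acta2* as its best known marker, and that secrete collagens and other matrix proteins during wound repair and in fibrosis. The testis holds related stromal cells, among them the peritubular myoid cells that surround the seminiferous tubules and the interstitial progenitors that give rise to Leydig cells. Secreted matrix is built in layers, with collagen fibrils, elastic microfibrils, cross-linking enzymes, matricellular proteins that tune adhesion, and proteases held back by inhibitors.

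A property of the library has to be stated before any value. Of the 2171 day 7 barcodes of 12 bases, 1026 (47.3%) shared their first 11 bases with another day 7 barcode, and 229 sets held all 4 possible last bases. Over 1000 genes the profiles of barcodes within such a set correlated at a median of 0.158, against 0.0134 for the 5 nearest other barcodes in depth. The 335 top cells had 265 distinct beginnings of 11 bases and the 335 bottom cells had 289, and whether barcodes of a set are separate cells was not tested. With such barcodes summed into 1 cell each, 995 cells qualified and each quartile held 249. No barcode was shared between the libraries of different days.

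The 6 genes of the ranking code for proteins of different kinds. *Mgll* encodes monoacylglycerol lipase, which splits the endocannabinoid 2-arachidonoylglycerol. *Anxa8* is a calcium-dependent membrane-binding annexin and *Sema7a* a membrane-anchored semaphorin. *Ltbp2* and *Tnc* encode matrix proteins, a microfibril-associated protein and the adhesion-modulating tenascin C. *Nupr1* encodes a small nuclear protein that is induced by cell stress, and ATF4, the main transcription factor of the integrated stress response, is a known activator of it.

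The promoter of *Nupr1* is shown because this gene supplied most of the ranking score, as described next. The 250 bases before its start (chr7:126625471-126625720, minus strand, GRCm38.p6, sequence from RefSeq) read as follows, with capitals marking the letters TGATGCAA of an ATF4 element on the opposite strand, 110 bases before the start.
Nupr1: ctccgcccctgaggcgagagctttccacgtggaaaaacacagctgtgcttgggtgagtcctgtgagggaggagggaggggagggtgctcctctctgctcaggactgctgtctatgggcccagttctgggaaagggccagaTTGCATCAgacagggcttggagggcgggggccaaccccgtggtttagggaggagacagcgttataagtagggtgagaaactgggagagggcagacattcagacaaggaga
Windows of 300 bases around the starts of the 6 genes were searched on both strands for TGATGCAA, for TGANTCA (AP-1), for GGAATG (TEAD) and for the CArG box of SRF, and this match was the only one among them. TGATGCAA was present in 1.03% of all 27025 genes with a RefSeq promoter window. TGANTCA was present in 8.97% of them, GGAATG in 16.6% and the CArG box in 1.81%. Among genes with a window that were later counted as higher or lower in these cells, TGANTCA was present in 15 of 141 (10.6%) and 17 of 144 (11.8%), against 6.42% of all genes tested, and TGATGCAA in 2 (1.42%) and 3 (2.08%), against 0.928%. GGAATG was present in 17 (12.1%) and 29 (20.1%), against 14.2%, and the CArG box in 2 (1.42%) and 1 (0.694%), against 1.97%. A match describes letters, not a bound site.

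The ranking values themselves are given as a description, since they chose the cells. The score was 4518 CPM over the top quartile, 2365 over the upper middle, 1280 over the lower middle and 422 over the bottom quartile. The lowest score inside the top quartile was 3019 CPM and the highest just outside it 3016 CPM, so the limit cuts a continuous range. At the other end, the highest score in the bottom quartile was 827 CPM, the lowest above it 830 CPM, and 84 bottom cells (25.1%) had no UMI of the 6 genes. *Nupr1* supplied 63.8% of the score UMIs of the top quartile, *Mgll* 11.9%, *Ltbp2* 11.8%, *Tnc* 7.35%, *Anxa8* 3.00% and *Sema7a* 2.11%.

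Level by level, *Nupr1* stood at 2885 CPM (95% interval 2817 to 2953) in the top quartile, 1297 in the upper middle, 711 in the lower middle and 235 (211 to 260) in the bottom. *Mgll* stood at 537, 341, 171 and 62.6 CPM in the same order, and *Ltbp2* at 534, 432, 227 and 65.9 CPM. The other 3 genes had the same order, with *Tnc* going from 332 to 31.3 CPM, *Anxa8* from 135 to 13.1 and *Sema7a* from 95.4 to 13.7. The top cells carried a median of 4 of the 6 genes each, and 28 of them carried all 6. The median was 1 gene in the bottom quartile, whose cells were also shallower, with 3470 UMIs in the median cell against 4791 in the top quartile. The median mitochondrial share was 1.48% in the bottom and 1.38% in the top quartile.

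Each of the 6 genes was also followed when it was left out of the score and only the other 5 ranked the cells. *Anxa8*, then, was 4.52-fold higher in the top than in the bottom quartile (interval 3.22 to 6.49) and *Sema7a* 4.07-fold (2.77 to 6.15). *Mgll* stood at 403 against 126 CPM (3.19-fold, 2.73 to 3.74) and *Ltbp2* at 446 against 159 CPM (2.81-fold, 2.44 to 3.26). *Nupr1*, ranked by the 5 other genes, stood at 1778 against 706 CPM (2.52-fold, 2.35 to 2.70), and *Tnc* at 228 against 111 CPM (2.06-fold, 1.72 to 2.46). All 6 genes were thus higher in cells picked by the others, and each by less than when it took part in the ranking. The 6 genes had been put together with results of these same data known. These ratios therefore describe the set and are not independent support for it.

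**Figure D1:**
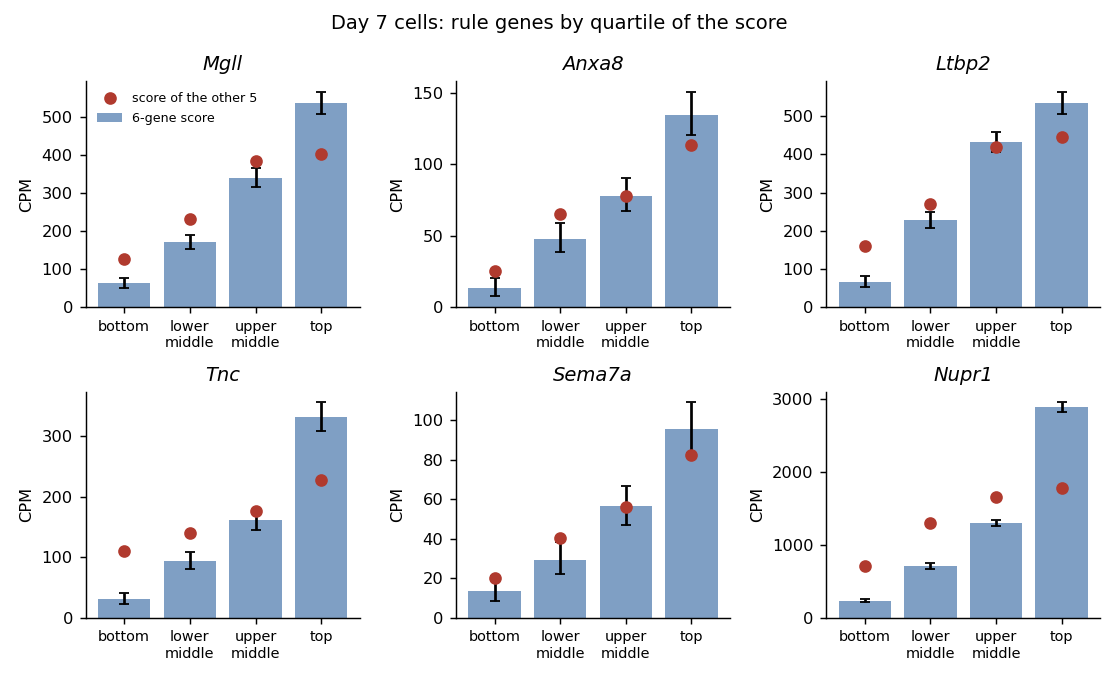
Levels of the 6 ranking genes (CPM of summed UMIs) over the 4 quartiles of 335 day 7 cells. Bars with exact Poisson 95% intervals show quartiles of the 6-gene score, and points show quartiles of the score of the other 5 genes, where the top quartile stays above the bottom for each gene, as with *Mgll* at 403 against 126 CPM.

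The working label of these cells, matrix-producing myofibroblasts, was checked against contractile and matrix genes. The top quartile held 2604 CPM of *Acta2*, smooth muscle actin, 5767 CPM of *Col1a2*, a chain of type I collagen, and 13197 CPM of *Sparc*, a collagen-binding matrix protein. The bottom quartile held 2442, 4824 and 10737 CPM of the same genes, and neither of the middle quartiles was lower in *Acta2*, at 3011 and 3468 CPM. The smooth muscle markers *Myh11* and *Des* were at 7.91 and 3.33 CPM in the top quartile. By the 6-gene score, a list of contractile genes summed to 17246, 18873, 18716 and 14727 CPM from top to bottom. A list of collagen genes summed to 13186, 13365, 14325 and 13515 CPM. In neither sum was the top quartile the highest. Single genes differed more, and the contractile result changed with *Nupr1* left out of the score, as given below. The top quartile is therefore called marker-high and the bottom quartile marker-low in what follows, and neither is given a cell type name.

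For the remaining genes, 3370 had at least 50 CPM over the 1340 qualifying cells, the 6 ranking genes left out. A gene was counted as higher or lower when the ratio, after adding 1 CPM to both levels, reached 1.5-fold. By this count 195 genes (5.79%) were higher and 183 (5.43%) lower in the marker-high cells, and the median log2 ratio over all 3370 genes was 0.003. Of the 195, 154 kept the same order over all 4 quartiles, and of the 183, 151 did. At 2-fold the counts were 58 (1.72%) and 69 (2.05%). When the quartiles were taken within 5 bins of equal depth, which brought the median depths to 4007 and 4214 UMIs, 159 genes were higher and 164 lower, and 149 and 152 of them were among those counted before. When each cell was instead thinned to 1500 UMIs, 207 were higher and 215 lower, of which 115 and 121 were among those counted before. These counts come from the contrast that chose the cells, so they describe it and nothing more.

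Secreted ligands, enzymes and a cytoskeletal gene led the higher genes. *Nes*, the intermediate filament nestin of progenitor cells, stood at 113 CPM in the marker-high cells, 100 and 27.2 in the middle quartiles and 13.1 in the marker-low cells (8.65-fold, 5.49 to 14.4). *Srgn*, the proteoglycan serglycin, stood at 162 against 30.7 CPM (5.30-fold, 3.91 to 7.33), and *Aldh1a3*, an enzyme of retinoic acid synthesis, at 288 against 65.3 CPM (4.42-fold, 3.58 to 5.50). *Hbegf*, a heparin-binding ligand of the EGF receptor, stood at 346, 269, 150 and 83.5 CPM from top to bottom (4.14-fold, 3.44 to 5.03). Each of these 4 genes was lower in each successive quartile. *Ptgs2*, the inducible cyclooxygenase, stood at 98.3 against 24.8 CPM (3.96-fold), and *Gadd45a*, a stress-induced regulator of growth arrest, at 273 against 79.6 CPM (3.43-fold). The chemokine genes *Cx3cl1* (92.9 against 28.1 CPM) and *Ccl7* (90.0 against 27.4 CPM, but 62.9 against 54.3 CPM with *Nupr1* left out of the score) and *Angptl4*, an inhibitor of lipoprotein lipase (184 against 57.4 CPM), were each more than 3-fold higher. *Rnf149* (165 against 43.1 CPM) and *Prune2* (97.9 against 28.7 CPM) completed the group.

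*Lox*, which encodes the lysyl oxidase that cross-links collagen and elastin, was also among the 12 leading genes. *Lox* stood at 2809 CPM (2743 to 2877) in the marker-high cells, 2218 and 1491 in the middle quartiles and 808 (763 to 854) in the marker-low cells, a ratio of 3.48 (3.27 to 3.70).

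The study of these samples names 10 genes for its myofibroblasts, which are therefore not independent of them, 5 for a matrix-depositing state on day 7 and 5 of the actin cytoskeleton for an earlier state. Of the first 5, *Tnc* took part in the ranking. *Clu*, the secreted chaperone clusterin, stood at 732 against 388 CPM (1.88-fold, 1.72 to 2.07), *Col5a2* and *Pdgfa*, described below, were 1.79-fold and 1.97-fold higher, and *Postn*, the matricellular protein periostin, was 1.38-fold higher (1.24 to 1.54). All 4 thus had ratios above 1, and 3 of them passed 1.5-fold. Of the cytoskeletal 5 none passed it, with *Actn1* at 518 against 399 CPM, *Nexn* at 179 against 140 CPM, *S100a4*, a calcium-binding protein of motile fibroblasts, at 343 against 391 CPM, and *Lmod1* and *Acta2* at ratios of 1.01 and 1.07. With *Nupr1* left out of the score, *Actn1* and *Acta2* did pass it, at log2 ratios of 0.636 and 0.658. Over 22 alternatives *Nexn* passed it in 3 and *S100a4* in none. *Lmod1* never passed it in the higher direction, but its lowest log2 ratio, -0.79, passed it in the lower direction.

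Secreted proteins of several kinds and 2 enzymes of the steroid-producing lineage led in the other direction. *Smoc2*, a secreted calcium-binding matrix protein, stood at 19.2 CPM in the marker-high cells, 52.1 and 129 in the middle quartiles and 686 in the marker-low cells, 35.8-fold lower in the marker-high cells (26.6 to 49.2). *Sfrp1*, a secreted inhibitor of Wnt signalling, was 26.9-fold lower (11.2 against 303 CPM, interval 18.3 to 41.3). *Serpina3n*, a secreted protease inhibitor, was 12.7-fold lower (254 CPM in the marker-low cells), and *Gpx3*, the extracellular glutathione peroxidase, 12.2-fold lower (21.7 against 265 CPM). *Mt2*, a metallothionein that binds zinc, stood at 69.1 against 405 CPM, and *Apoe*, the lipid-carrying apolipoprotein E, at 78.3 against 365 CPM. *Ly6a*, the gene of the Sca1 antigen used in the sort, stood at 30.4 against 155 CPM (5.09-fold lower, 3.90 to 6.71). *Figf* (22.5 against 146 CPM), a ligand of the VEGF family, *Mfap2* (31.2 against 174 CPM), a microfibril protein, and *Cp* (37.9 against 177 CPM), the copper carrier ceruloplasmin, were each over 4-fold lower.

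*Cyp11a1*, the enzyme of the first step of steroid synthesis, and *Adh1*, an alcohol dehydrogenase, had the lowest ratios. The marker-high cells held 2 UMIs of each, and the marker-low cells held 360 CPM of *Cyp11a1* (432-fold lower in the marker-high cells, interval 119 to 3579) and 284 CPM of *Adh1* (341-fold, 93.8 to 2822). The 552 *Cyp11a1* UMIs of the marker-low quartile lay in 30 of its 335 cells, as many as 69 in 1 cell. A *Cyp11a1* UMI was present in 8.96% of marker-low and 0.299% of marker-high cells at median depths of 3470 and 4791 UMIs, and with every cell thinned to 1500 UMIs the shares were 8.06% and 0.299%. By contrast *Smoc2* UMIs were spread over 39.7% of marker-low cells. With all cells that held a UMI of *Cyp11a1*, *Cyp17a1*, *Hsd3b1* or *Insl3* left out and the quartiles formed again, the log2 ratio of *Smoc2* was -4.49, of *Sfrp1* -4.40 and of *Gpx3* -3.46, against -5.09, -4.63 and -3.55 with them. That of *Adh1* went from -7.28 to -4.25. That of *Aldh1a1*, a retinaldehyde dehydrogenase abundant in Leydig cells, went from -1.45 to -0.72 and that of *Fdx1*, the electron donor of *Cyp11a1*, from -1.68 to -0.53.

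**Figure D2:**
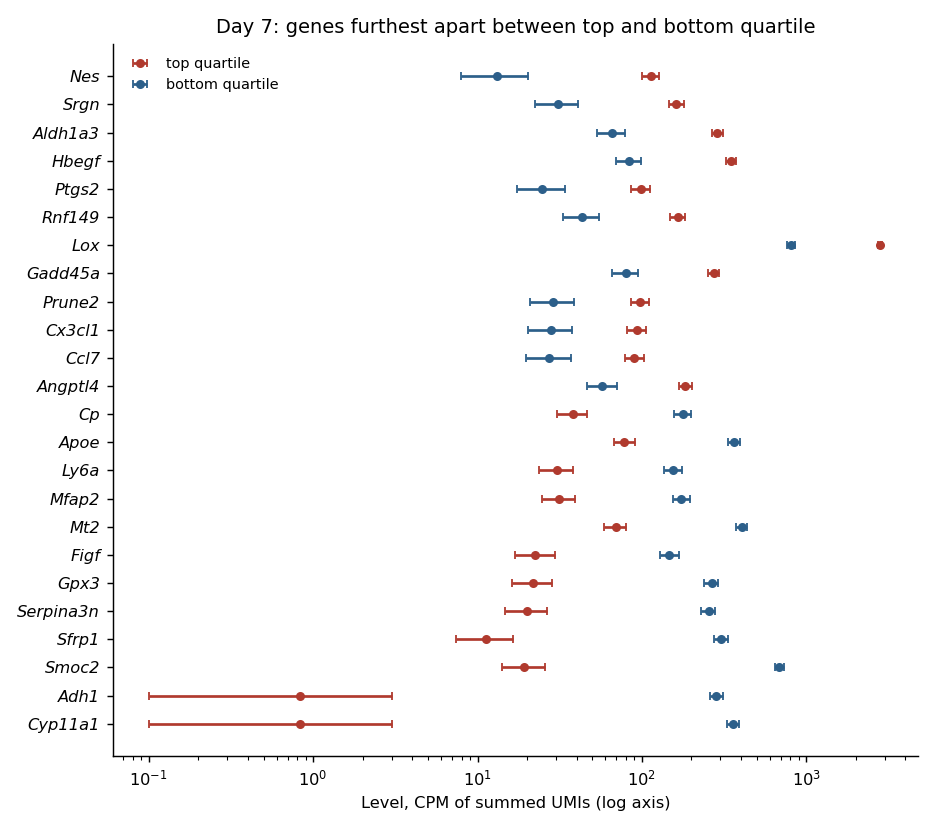
Levels (CPM of summed UMIs, log axis) of the 12 genes with the highest and the 12 with the lowest ratio between the top and bottom quartile of day 7 cells, with exact Poisson 95% intervals. The 12 upper genes are higher in the marker-high cells, such as *Nes* at 113 against 13.1 CPM, and the 12 lower genes lower, down to *Cyp11a1* at 0.833 against 360 CPM.

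Matrix genes went both ways. The 6 matrix lists held 60 genes above the 50 CPM limit, of which 9 (15.0%) were higher, 15 lower and 36 neither, with a median log2 ratio of 0.12. Over all genes tested these shares were 5.79% higher and 5.43% lower.

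Among 11 collagen genes, 2 were higher and 3 lower. *Col5a2*, of the fibril-nucleating type V collagen, stood at 1344, 1160, 996 and 749 CPM from top to bottom (1.79-fold, 1.68 to 1.92), and *Col8a1*, a short-chain collagen, at 297 against 175 CPM (1.70-fold). *Col3a1*, the type III collagen of early repair tissue, took the opposite course, with 2861, 3395, 4455 and 5212 CPM (1.82-fold lower, 1.76 to 1.88). *Col6a1* and *Col6a2*, chains of the beaded type VI collagen, were 1.70-fold lower, whereas the third chain, *Col6a3*, stood at 283 against 193 CPM. The summed level of the collagen list was 13186 CPM in the marker-high and 13515 CPM in the marker-low cells. The sum was thus close in both quartiles while single collagens differed in both directions.

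Elastic fibre genes also split, with 4 of 12 higher and 3 lower. Besides *Lox*, *Mfap5*, a microfibril glycoprotein, stood at 338, 312, 170 and 110 CPM (3.09-fold, 2.61 to 3.66), and *Ltbp1* and *Fbn1*, the gene of fibrillin-1, were 1.60-fold and 1.54-fold higher. *Eln*, the elastin gene, stood at 27.9, 41.8, 100 and 127 CPM (4.56-fold lower, 3.44 to 6.11). The microfibril genes *Mfap5* and *Mfap2* thus had opposite signs, as had *Lox* and *Eln*.

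Of 9 matricellular and adhesive genes, 2 were higher and 2 lower. *Spp1*, the secreted phosphoprotein osteopontin, stood at 10216, 8332, 5368 and 4771 CPM (2.14-fold, 2.09 to 2.20), and *Fbln2*, fibulin-2, at 1411 against 827 CPM (1.71-fold). *Fn1*, fibronectin, at 451 against 307 CPM, and *Postn*, periostin, at 457 against 331 CPM, stayed under 1.5-fold. However, *Fn1* passed it without *Nupr1* in the score (log2 ratio 0.67), and *Postn* passed it under 6 of 22 alternatives. In this list 5 genes were higher and 2 lower without *Nupr1* in the score, beside 7.45% and 5.43% of all genes tested. The list's median log2 ratio was then 0.61, against 0.16 with all ranking genes and -0.04 by *Nupr1* alone. The ranking by *Nupr1* alone left 2 genes of the list higher and 3 lower. In the basement membrane list, *Col15a1*, which links basement membrane to the matrix below it, stood at 876 against 394 CPM (2.22-fold, 2.03 to 2.44) and the laminin chain gene *Lama4* at 90.4 against 161 CPM, with 10 of 12 genes counted as neither. No gene of collagen processing was higher and 4 of 13 were lower, led by *Adamts2*, the protease that trims procollagen (200 against 449 CPM, 2.25-fold lower), and *P4ha2*, a collagen prolyl hydroxylase (128 against 242 CPM). *Serpinh1*, the collagen chaperone, stood at 1942 and 1921 CPM. Of 3 leucine-rich proteoglycan genes, *Dcn*, decorin, at 240 against 583 CPM and *Prelp* at 42.5 against 86.1 CPM were lower, and *Bgn*, biglycan, at 2647 against 2217 CPM was neither.

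Inhibitors of matrix breakdown were among the higher genes. *Timp1*, an inhibitor of metalloproteinases, stood at 15509, 12344, 9002 and 5607 CPM from top to bottom (2.77-fold, 2.70 to 2.83). *Timp2* was 1.53-fold higher. *Adamts5*, a protease of proteoglycans, stood at 93.3 against 305 CPM (3.27-fold lower, 2.79 to 3.86). In this list of proteases and inhibitors, 5 of 12 genes were higher and 2 lower, beside 5.79% and 5.43% of all genes tested. Without *Nupr1* in the score 3 were higher, beside 7.45%, and by *Nupr1* alone 4, beside 3.92%.

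**Figure D3:**
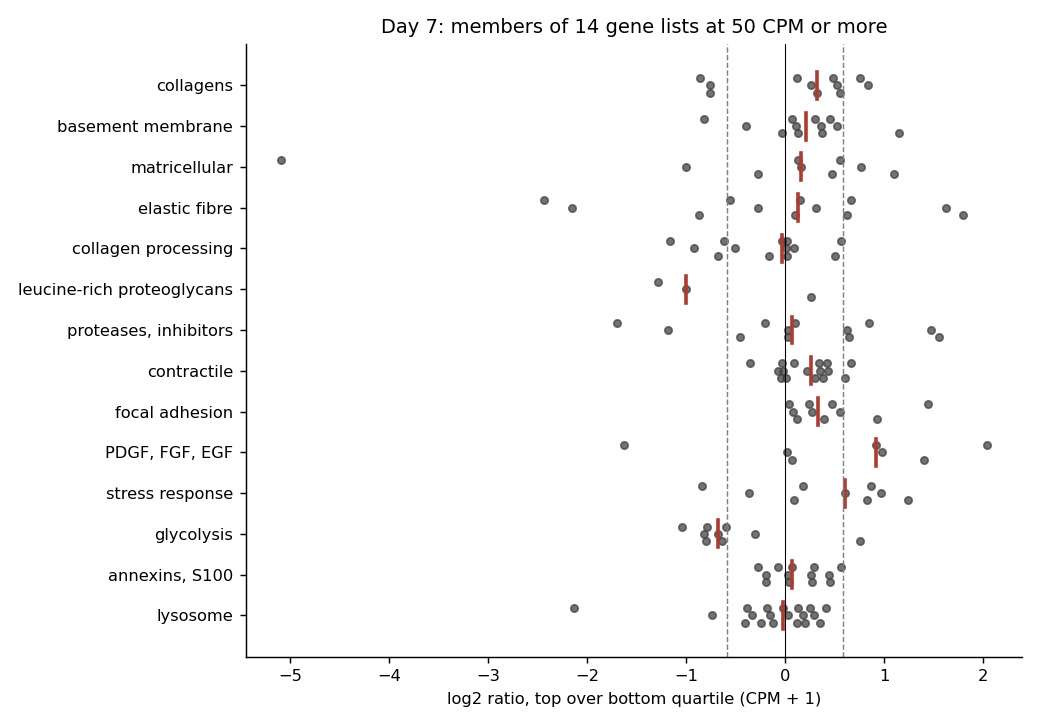
Log2 ratios between the top and bottom quartile of day 7 cells (1 CPM added) for members of 14 gene lists with at least 50 CPM, with red bars at each list's median and dashed lines at 1.5-fold. Collagen, elastic fibre and matricellular genes lie on both sides of 0, contractile genes stay near it with a median of 0.26, and glycolysis genes lie mostly below it with a median of -0.68.

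In the list of PDGF, FGF and EGF family genes, 4 of 7 were higher and 1 lower, beside 5.79% and 5.43% of all genes tested. *Fgf2*, one of the factors in the medium, stood at 167 against 62.6 CPM (2.66-fold, 2.12 to 3.36), *Fgfr1*, one of its receptors, at 164 against 86.1 CPM, and *Pdgfa* at 263 against 133 CPM (1.97-fold, 1.68 to 2.32). *Pdgfra*, the receptor of that ligand and a marker of interstitial progenitors, was 3.15-fold lower (36.2 against 114 CPM, 2.42 to 4.12). This ligand and its receptor had opposite signs. In the TGF-beta list, *Inhba*, the activin A subunit (1036 against 538 CPM, 1.93-fold), *Pmepa1* (106 against 45.0 CPM) and *Skil* (102 against 65.3 CPM), both known TGF-beta targets, were 3 of 4 genes above the limit. *Ctgf*, a target of YAP, stood at 1935 against 927 CPM (2.09-fold, 1.97 to 2.22) and was 1 of 9 higher in the YAP and SRF list. Of the focal adhesion genes, 2 of 10 were higher, the integrin subunits *Itga5* (72.5 against 26.1 CPM) and *Itgav* (206 against 108 CPM). Without *Nupr1* in the score 4 of 9 YAP and SRF genes and 4 of 10 focal adhesion genes were higher, beside 7.45% of all genes tested. By *Nupr1* alone none was higher in either list, and 2 YAP and SRF genes were lower, beside 4.24%. *Nrp2*, a semaphorin and VEGF coreceptor, stood at 266 against 137 CPM and its relative *Nrp1* at 123 against 255 CPM.

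Of genes in none of the lists, *Cdkn2b*, an inhibitor of CDK4 and CDK6, stood at 423 against 168 CPM (2.51-fold, 2.19 to 2.89), *Cdkn1a*, the p21 gene, at 670 against 419 CPM (1.60-fold), and *Ccl2*, a monocyte chemokine, at 404 against 162 CPM (but 307 against 251 CPM with *Nupr1* left out of the score). These 3 and the list members *Mfap5*, *Col8a1*, *Col6a1*, *Col6a2*, *Col6a3*, *Ltbp1*, *Fbn1*, *Fbln2*, *Fn1*, *Timp2*, *Fgf2*, *Fgfr1* and *Skil*, like *Myh11*, *Des*, *Tpm2*, *Mthfd2*, *Slc3a2*, *Ddit3*, *Psat1*, *Star* and *Tcf21* elsewhere, were named after their values had been seen.

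The contractile list depended on *Nupr1*. By the 6-gene score, 2 of 16 contractile genes were higher and none lower, beside 5.79% and 5.43% of all genes tested, with a median log2 ratio of 0.26. The 2 were *Tagln*, the actin-binding transgelin (1235 against 777 CPM, 1.59-fold, 1.48 to 1.70), and *Myh9*, non-muscle myosin (397 against 262 CPM, 1.52-fold, 1.35 to 1.71), and both were under 1.5-fold when the quartiles were taken within bins of equal depth. *Acta2* stood at 2604, 3011, 3468 and 2442 CPM and *Lmod1*, a nucleator of actin filaments, at 256, 301, 416 and 254 CPM, highest in the lower middle quartile. When *Nupr1* was left out of the score, 10 of 16 contractile genes were higher, beside 251 of all 3370 genes (7.45%), and the list's median was 0.68. *Acta2* then stood at 3456 against 2191 CPM (1.58-fold, 1.51 to 1.64), *Tagln* at 1508 against 612 CPM (2.46-fold, 2.29 to 2.65) and *Tpm2*, a tropomyosin, at 1207 against 658 CPM. When *Nupr1* alone ranked the cells, no contractile gene was higher and 4 of 16 were lower, beside 143 of all 3370 genes (4.24%), with a median of -0.17 and *Acta2* at 1995 against 3010 CPM. Only 201 of the 335 top cells (60.0%) were also in the top quartile of the score without *Nupr1*, and 254 (75.8%) were in that of *Nupr1* alone.

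The integrated stress response list had the opposite dependence. By the 6-gene score 5 of 9 genes were higher, beside 5.79% of all genes tested. They were *Asns*, asparagine synthetase (160 against 80.9 CPM, 1.97-fold, 1.61 to 2.43), *Aldh1l2* (2.40-fold, 1.73 to 3.40) and *Mthfd2* (198 against 108 CPM), both enzymes of mitochondrial folate metabolism, the amino acid transporter subunit gene *Slc3a2* (274 against 154 CPM) and *Ddit3*, the CHOP transcription factor (129 against 84.8 CPM). *Atf4* itself stood at 272 against 256 CPM, and *Psat1*, of serine synthesis, was lower (41.2 against 74.4 CPM). By *Nupr1* alone 5 of 9 were higher, beside 3.92% of all genes, and without *Nupr1* 1 of 9 was, *Aldh1l2*, beside 7.45%, with *Asns* at 139 against 93.0 CPM. *Ddit3* stood at 138 against 80.1 CPM by *Nupr1* alone and at 108 against 130 CPM by the 5 other genes. The genes *Lox*, *Timp1* and *Col15a1* did not depend on *Nupr1* in this way, with *Lox* 3.22-fold higher without *Nupr1* and 2.45-fold higher by *Nupr1* alone. *Smoc2* was 126-fold lower without *Nupr1* and 13.8-fold lower by *Nupr1* alone. Of the genes named outside these lists, *Ccl7*, *Ccl2*, *Timp2*, *Fbn1*, *Skil*, *Fabp5* and *Pcna* did not reach 1.5-fold without *Nupr1*. By *Nupr1* alone *Col5a2*, *Col8a1*, *Ltbp1*, *Fbn1*, *Inhba*, *Skil*, *Ctgf*, *Itga5*, *Itgav*, *Aldoa*, *Hexa* and *Jun* did not reach it.

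**Figure D4:**
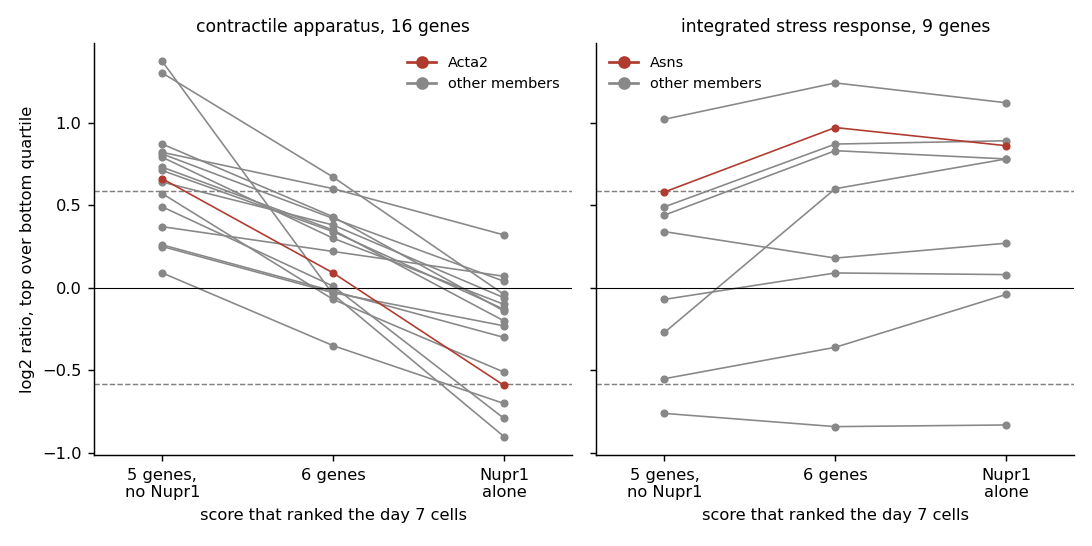
Log2 ratios between the top and bottom quartile of day 7 cells for the contractile genes (left) and the integrated stress response genes (right), with cells ranked by the 5 genes without *Nupr1*, by all 6, or by *Nupr1* alone, dashed lines at 1.5-fold, and *Acta2* and *Asns* in red. The contractile median goes from 0.68 over 0.26 to -0.17, and the stress response median is 0.34, 0.60 and 0.78.

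Of 9 glycolysis genes, 7 were lower and 1 higher, beside 5.43% and 5.79% of all genes tested, and 5 were lower without *Nupr1* in the score and 4 by *Nupr1* alone. The lower ones included *Pgk1* at 98.3 against 204 CPM (2.07-fold lower, 1.74 to 2.46), *Eno1* at 328 against 581 CPM and *Aldoa* at 811 against 1302 CPM. None of 13 annexin and S100 genes passed 1.5-fold in either direction by the 6-gene score, although *Anxa8* was a ranking gene, and *S100a6* stood at 5499 and 5363 CPM. Without *Nupr1* in the score 2 of the 13 were higher, among them *Anxa3* (log2 ratio 0.853), beside 7.45% of all genes tested. Of 19 lysosome genes 2 were lower, *Lgmn* (60.4 against 267 CPM) and *Hexa* (187 against 314 CPM). Of 3 genes of the lipid hydrolysis and endocannabinoid list, 1 was lower, *Fabp5*, a fatty acid carrier (68.7 against 162 CPM). None of 3 interferon genes and none of 7 mitochondrially encoded genes passed the limit, and *Malat1*, a nuclear RNA, stood at 8475 against 5850 CPM, with *Meg3*, at 317 against 148 CPM, the 1 higher of 3 nuclear RNAs. *Jun* was the 1 higher gene of 5 immediate-early genes (144 against 91.4 CPM). *Pcna*, of DNA replication, was lower (101 against 156 CPM), and no mitosis gene other than the 2 excluded ones reached 50 CPM, with a summed level of 78.3 CPM in the marker-high and 183 CPM in the marker-low cells. *Hes1*, the 1 gene of the hedgehog, Wnt and Notch list above the limit, stood at 52.9 against 45.7 CPM.

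Markers of other cell types were mostly low. Steroidogenic genes summed to 1056 CPM in the marker-high and 2440 CPM in the marker-low cells, with *Aldh1a1* at 357 against 981 CPM. *Star*, the cholesterol carrier of steroid synthesis, went the other way, at 544, 441, 293 and 374 CPM from top to bottom (1.45-fold, 1.32 to 1.61). *Cyp17a1* was at 0 in the marker-high cells. Macrophage markers summed to 11.2 and 94.0 CPM, with *Adgre1*, *Cx3cr1*, *C1qa* and *C1qc* at 0 in both, and 94 of the 95 *Lyz2* UMIs in the marker-low quartile came from 1 cell. Endothelial markers summed to 150 and 115 CPM, nearly all of it *Cdh5* (135 and 99.8 CPM), with *Vwf*, *Tie1* and *Esam* at 0 in both. Of the Sertoli markers, which summed to 1211 and 1363 CPM, nearly all was *Ctsl*, which stroma also expresses, and *Amh* and *Dmrt1* were at 0 in both. Germ cell markers summed to 82.9 and 45.7 CPM, with *Uchl1* at 58.7 and 18.3 CPM and with *Ddx4* and *Zbtb16* at 0. Of 8 interstitial progenitor genes, 2 were higher and 3 lower, beside 5.79% and 5.43% of all genes tested. *Tcf21*, the marker of the starting population, was below the limit, at 12.5 CPM in the marker-high cells and 2.40-fold higher in the marker-low cells (1.48 to 3.94). The part of these cells in the ratios was not tested beyond the values without steroidogenic cells given above.

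The same rule was applied to the libraries of the other days, which it had not used. On day 4, 1767 cells qualified and 442 formed each end quartile, and 134 genes (4.05%) were higher and 120 (3.63%) lower. Of the 442 bottom cells there, 341 (77.1%) had no UMI of the 6 genes, and *Nupr1* gave 64.9% of the score UMIs of the top cells. Of the 195 genes higher on day 7, 161 reached 50 CPM on day 4, of which 154 had the same sign, 76 passed 1.5-fold and none passed it in the opposite direction. Of the 183 lower genes, also 161 reached 50 CPM, 153 had the same sign, 53 passed 1.5-fold and again none was opposite. *Lox* stood at 1670 against 697 CPM on day 4, *Timp1* at 10137 against 4344, *Nes* at 91.8 against 21.0 and *Smoc2* at 59.0 against 234. *Acta2* stood at 4022 against 2791 CPM on day 4, and 3 of 16 contractile genes were higher there by the 6-gene score, 6 by the 5 genes without *Nupr1* (with 933 tied cells in that bottom group), beside 3.23% of all genes, and 2 by *Nupr1* alone, beside 1.87%. *Srgn*, among the leading genes of day 7, stood at 25.8 and 24.4 CPM on day 4.

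On day 14, 769 cells qualified, of which 239 had no UMI of the 6 genes and formed the bottom group, against 193 top cells. There 251 genes (8.04%) were higher and 286 (9.16%) lower. Of the day 7 higher genes, 88 reached 50 CPM on day 14, 33 of them passed 1.5-fold in the same direction and 4 in the opposite one. Of the lower genes 161 reached it, with 37 in the same and 31 in the opposite direction. *Nupr1* gave 96.9% of the score UMIs of the day 14 top cells, so the day 14 ranking was nearly one by *Nupr1*. *Dcn* stood at 1702 against 582 CPM there and *Pdgfra* at 198 against 60.7 CPM, both opposite in sign to day 7, while *Spp1* (2069 against 854 CPM) and *Timp1* (5290 against 2762 CPM) had the sign of day 7.

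**Figure D5:**
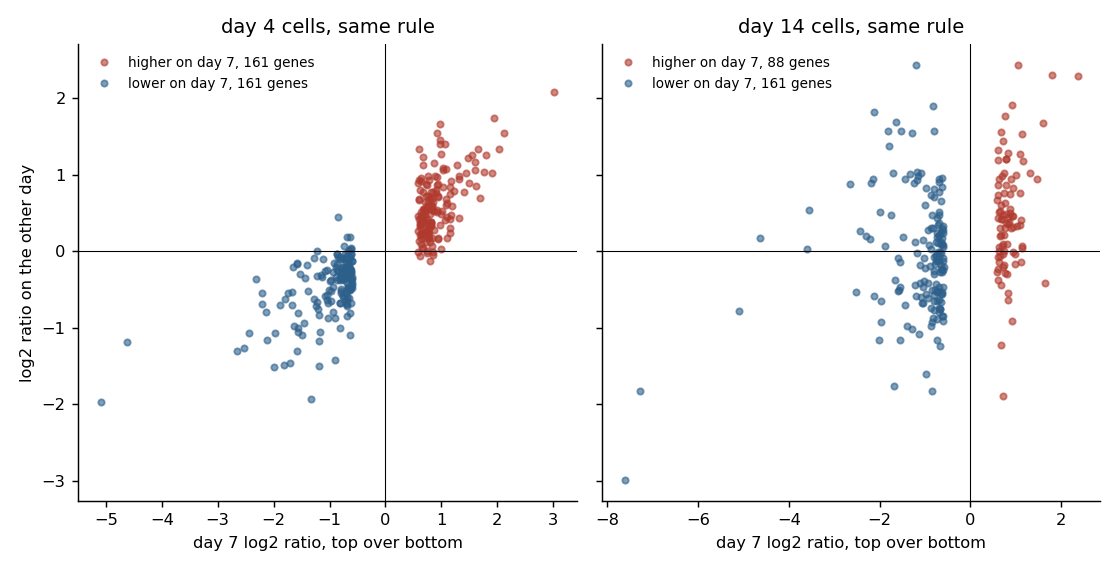
Log2 ratios between top and bottom quartile on day 4 (left) and day 14 (right) against those on day 7 for the genes counted as higher (red) or lower (blue) on day 7 that reach 50 CPM on the other day. On day 4, 154 of 161 higher and 153 of 161 lower genes keep their sign, and on day 14 the lower genes spread over both signs.

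Across days the 6 ranking genes were highest on day 7. Over qualifying cells, *Mgll* stood at 76.7 CPM on day 4, 307 on day 7 and 4.53 on day 14, *Ltbp2* at 119, 346 and 7.00 CPM, and *Tnc* at 59.5, 171 and 1.65 CPM. *Anxa8* stood at 18.2, 75.8 and 0.617 CPM, *Sema7a* at 7.38, 53.6 and 16.7 CPM and *Nupr1* at 563, 1430 and 448 CPM. All 6 therefore peaked on day 7 among the 3 days, and *Nupr1* was the one that stayed above 50 CPM on day 14. The contractile genes did not follow them, since the summed contractile list stood at 23272, 17578 and 2784 CPM and *Acta2* at 3427, 2890 and 105 CPM. *Lox* stood at 1172, 1959 and 60.9 CPM and *Timp1* at 7233, 11240 and 3849 CPM. *Smoc2*, low in the marker-high cells of day 7, stood at 121, 179 and 1245 CPM, and *Cyp11a1* at 16.1, 73.5 and 2136 CPM. As each day is 1 library, a difference between days cannot be told apart from one between libraries.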

How the data were processed

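Sca1+/cKit- mouse testis cells were profiled by Drop-seq on days 4, 7 and 14, with 1 library a day. Per the study's methods, alignment was to GRCm38 with STAR, and the deposited values are raw UMI counts that the authors obtained with Drop-seq tools. The submitters' processing notes list STAR 2.5.2a, Picard 2.6.0 and SAMtools 1.2. The merged table holds 24698 genes. Its cells had passed the authors' limits of 500 genes or more and 10% mitochondrial UMIs or less, and its counts equalled those of the tables per day. Another 495 columns, of day 0, were not used. Totals were 12677110 (day 4), 11627440 (day 7) and 5324400 (day 14) UMIs over 2980, 2171 and 973 cells.

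Summed UMIs gave CPM, with exact Poisson intervals, and ratios with exact conditional intervals. Log2 ratios had 1 CPM added. The code was tested on simulated data. Tools were Python 3.11.15, pandas 2.3.3, scipy 1.17.1, numpy 2.4.6 and matplotlib 3.10.9. Doublets were not removed, and Scrublet (scanpy 1.11.5) served 1 of the alternatives. Promoter windows were matched by gene symbol, 21 of 30 for the ranking and leading genes.

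Genes named in the text were the 6 ranking genes, 9 further genes that the study names, the 12 highest and 12 lowest ratios, and from each of 32 gene lists the 2 most different members and the most abundant, and 1 gene is not reported here. The members and lists were chosen with earlier results of these data known. Alternatives changed the score, depth, cell filters, share of cells, level limit, fold and pseudocount.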

Additional observations from a re-analysis of the deposited data

Results flagged for a closer look

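For 8 of the named genes with at least 50 CPM over the qualifying cells of both days the ratio between marker-high and marker-low cells passed 1.5-fold on day 7 and passed it in the opposite direction on day 14. *Clu* had a log2 ratio of 0.91 on day 7 and -0.91 on day 14. The other 7 genes were lower on day 7 and higher on day 14. *Pdgfra* went from -1.63 to 1.69, *Dcn* from -1.28 to 1.55 and *Adamts5* from -1.70 to 1.03. *Adamts2* went from -1.16 to 0.99, *Eln* from -2.15 to 0.95, *Cp* from -2.20 to 0.90 and *Figf* from -2.65 to 0.88. Each day is 1 library, so the difference between days was not tested. On day 14 the ranking rested on *Nupr1*, with 96.9% of the score UMIs of the top cells, against 63.8% on day 7.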

How the results depend on the processing

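Counts of 195 higher and 183 lower genes, of 9 higher matrix genes and of 2 higher contractile genes on day 7 were recomputed under each alternative. Of the 95 genes named by rule other than the ranking genes, 64 passed 1.5-fold and 41 of these passed it under all 22 alternatives that recompute their ratios, in the contrast that chose the cells. The 64 include *Lyz2* (14.8 CPM) and *Uchl1* (41.0 CPM), which lay below the 50 CPM limit and did not pass under all alternatives. Many of the 95 were picked by their ratio, so these shares do not extend to all genes. With the top and bottom 10% of cells, 134 in each group, 380 genes (11.3%) were higher, 339 (10.1%) lower and 14 matrix genes higher. With cells holding any S phase or mitosis UMI left out, 495 (15.1%) were higher, 454 (13.8%) lower and 18 matrix genes higher. That setting left 86 cells in each group, at median depths of 2345 and 2130.5 UMIs. What smaller and shallower groups add to such counts was not tested. With a level limit of 20 CPM, 412 were higher and 430 lower, and with 100 CPM 115 and 80. At 2-fold, 58 (1.72%) were higher and 69 (2.05%) lower, with 4 matrix and 0 contractile genes higher. With cells holding any UMI of *Star*, *Cyp11a1*, *Cyp17a1*, *Hsd3b1* or *Insl3* left out, 285 (8.5%) were lower and 0 contractile genes higher. *Star* was present in 64.2% of marker-high and 44.8% of marker-low cells, and this setting left groups of 146 and 147 cells.

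Without *Nupr1* in the score 14 matrix and 10 contractile genes were higher, beside 7.45% of all genes tested. With barcodes of 1 set also summed, 11 contractile genes were higher, beside 8.06%. By *Nupr1* alone 5 matrix and 0 contractile genes were higher, beside 3.92%. Lower matrix genes, 15 of 60 as reported, numbered 7 to 18 over the alternatives and exceeded the higher ones in each except that without S phase or mitosis UMIs (16 lower). The contractile count was 0 without *Mgll*, 1 without *Ltbp2*, 1 with a pseudocount of 10 CPM, and 0 with thinning to 1500 UMIs, with depth bins, with means over cells, or without cells holding *Cyp11a1*, *Cyp17a1*, *Hsd3b1* or *Insl3*.

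Among named genes whose ratio passed 1.5-fold as reported, the sign of *Tagln* reversed by *Nupr1* alone (log2 ratio -0.04). That of *Lyz2*, of which 94 of 95 marker-low UMIs lay in 1 cell, reversed with a higher minimum of UMIs per cell (0.86), with the top and bottom 10% of cells (2.36) and with summed barcodes and no *Nupr1* (0.36). Named genes under 1.5-fold as reported also changed sign under some alternatives, such as *Acta2* (lowest log2 ratio -0.59), *Lmod1* (-0.79) and *Postn* (-0.04). The cause was not tested in any of these. The settings without *Cyp11a1*, *Cyp17a1*, *Hsd3b1* or *Insl3* cells, by *Nupr1* alone and with summed barcodes were chosen after seeing the data. With 1 library a day, counting intervals leave the spread between cultures unknown. No paired analysis was possible because each day has 1 library.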
